A study of Mus musculus with 9 samples.

Results

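*Ces1d*, *Ces1f*, *Fmo1*, *Fmo2*, *Cyp2e1* and *Car3* encode oxidising, hydrolysing and hydrating enzymes of epididymal adipose tissue, and were taken by gene name from a table of 56748 genes. All 6 exceeded the filter on low counts (at least 0.5 CPM, the read count relative to library size, in at least 1 library), as did 18510 genes in all. The genes were chosen with results of these libraries in view, so their differences and calls are given as a description only. No p-value is printed for them, and a call, kept or lost, is not an independent test of a gene so chosen. Wild-type male C57BL/6J mice were given high-fat diet (HFD) from 8 weeks of age for 8 weeks and sampled at once (Pre), or were switched to standard diet (SD) and sampled after 1 week (WL1) or 2 weeks (WL2) of weight loss. Each phase had 3 RNA-seq libraries, and age rose with the phase, from 16 to 17 and 18 weeks. No mice kept on HFD or on SD throughout are among these 9 libraries, so the change of diet, age and time since HFD cannot be told apart. The labels do not say whether each library came from 1 mouse, and the spread between libraries may therefore be partly technical.

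Carboxylesterases are serine hydrolases of the endoplasmic reticulum that cleave esters of drugs and lipids, and *Ces1d* encodes the form also known as triacylglycerol hydrolase, which is abundant in mouse liver and fat. Flavin monooxygenases use NADPH and oxygen to oxidise nitrogen and sulfur atoms of small molecules, and FMO1 also forms taurine from hypotaurine. CYP2E1 is a cytochrome P450 that oxidises ethanol, acetone and other small molecules. Carbonic anhydrase 3, the product of *Car3*, is a cytosolic protein with weak CO2 hydration activity and is among the most abundant proteins of rodent adipocytes and of slow muscle.

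*Cyp2e1* had the largest difference of the 6 genes, and the 250 bases upstream of its annotated start are shown so that the region can be seen beside its values. RefSeq promoters were matched by symbol for 2 of the 6 genes, *Cyp2e1* with 1 window and *Fmo2* with 2. The *Cyp2e1* window lies at chr7:140763569-140763818 of GRCm38.p6, on the + strand. Capitals mark TATAAA and, on the reverse strand, CCAAT.
Cyp2e1: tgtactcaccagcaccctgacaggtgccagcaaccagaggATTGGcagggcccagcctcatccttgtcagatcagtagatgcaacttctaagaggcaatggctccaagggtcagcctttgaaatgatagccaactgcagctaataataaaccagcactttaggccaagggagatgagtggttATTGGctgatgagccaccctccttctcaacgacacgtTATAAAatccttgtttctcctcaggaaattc
TATAAA lay 31 to 26 bases before the start. CCAAT, read on the reverse strand, lay at 210 to 206 and at 68 to 64 bases before it. Among 32851 RefSeq windows of 250 bases, searched on both strands, 12.4% held TATAAA and 33.8% held CCAAT. The nuclear receptor motif AGGTCA, held by 14% of windows, was found in the second *Fmo2* window, 9 to 4 bases before the start, and not in the *Cyp2e1* window. The motifs do not overlap in letters, and a match or its absence describes these letters only.

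The libraries held 16434450 to 22729072 counts. Mitochondrial genes took 3.15% to 3.57% of counts in Pre, 1.86% to 2.03% in WL1 and 2.28% to 2.88% in WL2, so this share also separated the phases, with WL1 lowest, and its part in the differences below was not tested. Adipocyte markers were abundant in every library: the summed level of 12 adipocyte markers (among them *Fabp4*, *Lpl* and *Cidec*) was 33180 to 51020 CPM in Pre, 28460 to 34650 in WL1 and 37100 to 38360 in WL2, and 10 epididymis and testis markers summed to at most 1.59 CPM. Pre replicates 2 and 3 and WL1 replicate 1 stood apart by reads of liver genes. In these libraries 18 hepatocyte markers, led by *Alb*, summed to 74.1, 122 and 131 CPM and none was at 0, against 7.11 to 15.6 CPM in the other 6 libraries, where 2 to 9 of the markers were at 0. Liver also expresses *Cyp2e1* and carboxylesterases, so values without these 3 libraries are given beside each of the 6 genes. For related enzymes only counts are given from that fit, not values by gene. That fit keeps 1 Pre library, which is assumed to vary like the others. Marker lists of macrophages and mesothelium also varied between libraries, as plotted in the bar charts of marker lists. In bulk tissue, fewer cells of a type and less RNA per cell cannot be told apart.

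**Figure D1:**
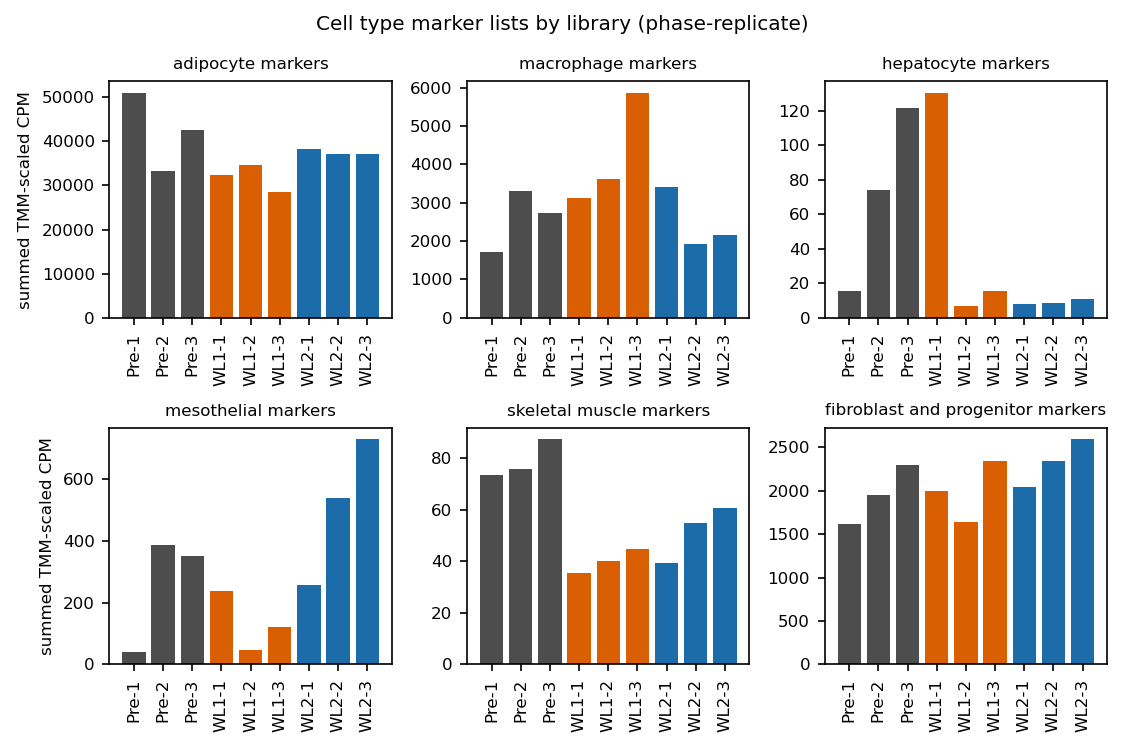
Summed TMM-scaled CPM of 6 cell type marker lists in each of the 9 libraries (grey Pre, orange WL1, blue WL2; bars start at 0; numbers after the dash are replicates). Hepatocyte genes reached 74.1 to 131 CPM in 3 libraries, and mesothelial genes ranged from 41.5 to 730 CPM.

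Levels between genes were compared as deposited FPKM, which scales fragments by gene length and library size. *Car3* was the most abundant of the 6 genes at every phase, with a mean of 3956 FPKM (SD 1065, n = 3) in Pre, and ranked 3 to 13 among all genes in every library. *Ces1d* came next and *Cyp2e1* after it at every phase. In Pre their library ranges overlapped, 224 to 364 FPKM for *Ces1d* and 208 to 261 FPKM for *Cyp2e1*. In WL2 they did not overlap, at 489 to 740 FPKM and 96.5 to 189 FPKM. *Fmo1*, *Fmo2* and *Ces1f* lay lowest, at 15.5, 16.3 and 11.6 FPKM in Pre (SD 0.27, 3.84 and 3.92, n = 3), with overlapping ranges. In WL1 the mean FPKM of *Cyp2e1*, 22.9 (SD 5.80), was near those of *Fmo2*, 13.8 (SD 4.55), *Ces1f*, 11.7 (SD 2.88), and *Fmo1*, with an SD of 2.22 and a range of 8.09 to 12.5 FPKM, and each overlapped its neighbour. In WL2 *Ces1f*, at 35.2 FPKM (SD 6.58), lay above *Fmo2*, at 27.0 (SD 7.79), and *Fmo1*, at 18.5 (SD 3.91), again with overlapping neighbours. By the mean over all 9 libraries, the order of the 6 genes was the same from library-scaled counts divided by the deposited gene length. FPKM is built in much the same way, so this is not a separate check of the orders by phase.

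**Figure D2:**
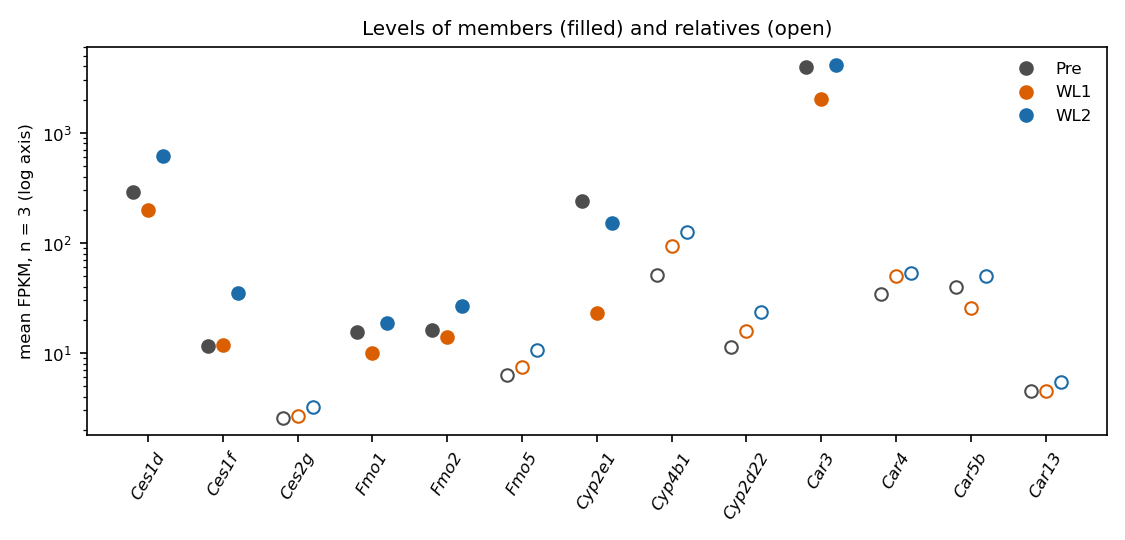
Mean deposited FPKM (log axis, n = 3 per phase, no error drawn) of the 6 genes (filled) and of related enzymes of the same families (open), in Pre (grey), WL1 (orange) and WL2 (blue). *Car3* and *Ces1d* lie above the other points of their families at every phase, and *Cyp2e1* drops in WL1 to 22.9 FPKM.

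The values by library below are CPM after TMM scaling (trimmed mean of M values), and log2 fold changes with standard errors (SE) come from an edgeR quasi-likelihood fit over the 9 libraries. A gene is named as called when its Benjamini-Hochberg adjusted p over 18510 genes was under 0.05. In WL1 against Pre, 2 of the 6 genes were called, both lower, where 2.6% of all genes were called higher and 4.69% lower, 7.29% in all. In WL2 against Pre, 2 were called, both higher, where 3.35% of all genes were called higher and 6.66% lower, 10% in all. In WL2 against WL1, 5 were called, all higher, where 1.31% of all genes were called higher and 2.37% lower, 3.68% in all. Nothing is read from these counts, since the genes were picked from these libraries. The median log2 fold changes of the 6 genes were -0.57, 0.49 and 1.29, against 0.02, 0.01 and 0.00 over all genes. The 3 comparisons share libraries, so they are not independent of each other.

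The counts moved when single libraries were left out. In WL1 against Pre 1 gene stayed called without Pre replicate 1, WL1 replicate 2 or WL1 replicate 3. Over all genes, 562, 674 and 512 were called in these fits, against 1350 in the main fit. In WL2 against Pre 1 of the 6 stayed called without WL2 replicate 2, where calls over all genes went from 1853 to 743. In WL2 against WL1 2 of the 6 stayed called without WL1 replicate 2, WL1 replicate 3 or WL2 replicate 3, and 1 without WL2 replicate 2. Calls over all genes went from 681 to 176, 130, 101 and 37 in these fits, so the calls of the 6 genes were lost along with most others. Without the 3 libraries rich in hepatocyte reads the counts were 1, 1 and 6.

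**Figure D3:**
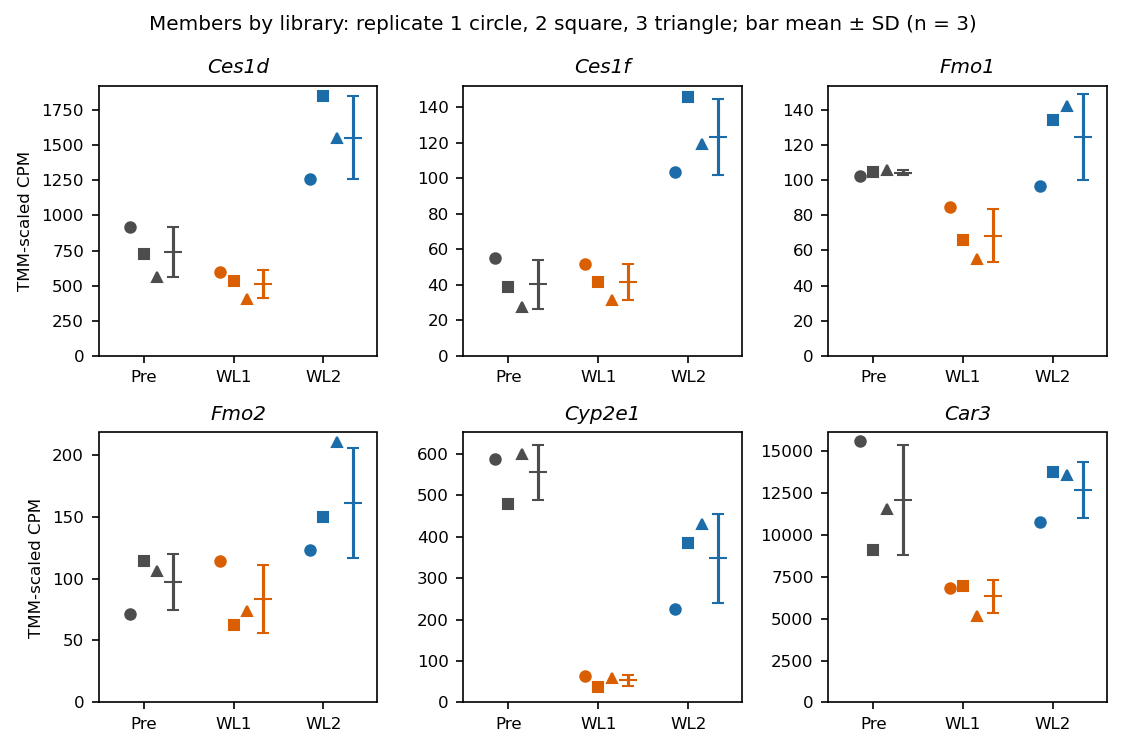
TMM-scaled CPM of each gene in each library (linear axis from 0, its own scale per gene) by phase; symbols mark replicates 1 (circle), 2 (square) and 3 (triangle), and the bar to the right is the mean ± SD (n = 3). *Cyp2e1* lies at 38.3 to 63.5 CPM in WL1, below every Pre and WL2 library, and the WL2 libraries of *Ces1d* and *Ces1f* lie above all others.

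*Ces1d* (ENSMUSG00000056973, chromosome 8, 93892696 to 93924466, - strand) was higher in WL2 than in either earlier phase. Positions here are those of the authors' table, whose build is not certain, and every gene of the 6 is listed as protein coding. *Ces1d* stood at 919, 728 and 565 CPM in Pre, at 597, 537 and 403 CPM in WL1, and at 1261, 1849 and 1548 CPM in WL2. The 3 WL2 libraries lay above all 6 others, and Pre and WL1 overlapped through Pre replicate 3 and WL1 replicate 1. Its log2 fold change was -0.53 (SE 0.21) in WL1 against Pre and was not called. It was called in WL2 against Pre at 1.07 (SE 0.21), a fold of 2.11, and in WL2 against WL1 at 1.60 (SE 0.22), a fold of 3.03. Both calls were lost without WL2 replicate 2, at 0.93 and 1.46. Without the 3 libraries rich in hepatocyte reads the WL2 difference from Pre was 0.75 and not called, that from WL1 was 1.73 and called, and WL1 against Pre was -0.97 and not called.

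*Ces1f* (ENSMUSG00000031725, chromosome 8, 93982864 to 94006375, - strand), a close paralog, did not share the lower WL1 values. It stood at 55.1, 38.5 and 27.7 CPM in Pre, 51.6, 41.5 and 31.3 CPM in WL1, and 104, 146 and 119 CPM in WL2. Pre and WL1 covered nearly the same range, and all WL2 libraries lay above both. The log2 fold change was 0.04 (SE 0.25) in WL1 against Pre, a sign that turned to -0.17 without Pre replicate 3, to -0.15 without WL1 replicate 1 and to -0.60 without the 3 libraries rich in hepatocyte reads. It was called in WL2 against Pre at 1.61 (SE 0.25), a fold of 3.04, in every fit that left out 1 library. It was called in WL2 against WL1 at 1.57 (SE 0.25). That call was lost without WL1 replicate 2 (1.57), WL1 replicate 3 (1.42), WL2 replicate 2 (1.43) or WL2 replicate 3 (1.59). The WL2 values without the 3 libraries rich in hepatocyte reads were 1.16 against Pre and 1.76 against WL1, both called.

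Both esterases ranked the libraries of each phase in the same order, with replicate 1 highest in Pre and WL1 and replicate 2 highest in WL2. The FPKM ratio of *Ces1d* to *Ces1f* was 23.1 to 28.3 in Pre, 16.1 to 17.9 in WL1 and 16.9 to 18.0 in WL2, so the Pre libraries did not overlap the rest. The gene between them, *Ces1e*, had at most 6 reads in a library, and the highest count of any other *Ces1* paralog was 90, for *Ces1c*. The sources used here do not say how reads shared by these paralogs were assigned, so the split between *Ces1d* and *Ces1f* is uncertain. *Gm45909*, which overlaps *Ces1d* on the same strand, had at most 28 reads.

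*Fmo1* (ENSMUSG00000040181, chromosome 1, 162657130 to 162694179, - strand) was even across the Pre libraries and lower in WL1. It stood at 102, 105 and 106 CPM in Pre, at 84.6, 65.6 and 55.0 CPM in WL1, and at 96.5, 134 and 142 CPM in WL2. WL1 lay below both other phases with no overlap, and WL2 spread to either side of Pre. The log2 fold changes of -0.61 (SE 0.18) in WL1 against Pre and 0.25 (SE 0.18) in WL2 against Pre were not called. The WL1 difference was called without WL1 replicate 1 (-0.79) or WL2 replicate 1 (-0.61), by DESeq2 (-0.63), with no filter (-0.60) and with 0.5 CPM required in 3 libraries (-0.64). It was called in WL2 against WL1 at 0.86 (SE 0.18), a fold of 1.82. That call was lost without WL1 replicate 2 (0.83), WL1 replicate 3 (0.75), WL2 replicate 2 (0.80) or WL2 replicate 3 (0.75), and with a replicate block. Without the 3 libraries rich in hepatocyte reads the values were -0.76 in WL1 against Pre, 0.28 in WL2 against Pre and 1.04 in WL2 against WL1, with the same calls.

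*Fmo2* (ENSMUSG00000040170, chromosome 1, 162701886 to 162726295, - strand) is the next gene of the same cluster and the main flavin monooxygenase of lung in many mammals. It stood at 71.3, 114 and 106 CPM in Pre, at 115, 62.7 and 73.7 CPM in WL1, and at 123, 149 and 210 CPM in WL2. Pre and WL1 overlapped, and all WL2 libraries lay above them. The log2 fold changes of -0.22 (SE 0.27), 0.73 (SE 0.27) and 0.94 (SE 0.27) in WL1 against Pre, WL2 against Pre and WL2 against WL1 were not called. The last was called without WL2 replicate 1 (1.11) and without the 3 libraries rich in hepatocyte reads (1.24), where the others were -0.07 and 1.17 and not called. DESeq2 and the fit with no filter called both WL2 differences, at 0.73 from Pre and at 0.97 and 0.94 from WL1. The 9 mesothelial markers, led by *Upk3b*, *Msln* and *Lrrn4*, summed to 41.5, 388 and 352 CPM in Pre, 238, 47.9 and 122 CPM in WL1, and 257, 539 and 730 CPM in WL2, with none at 0. Pre replicate 1 and WL1 replicates 2 and 3 were the 3 lowest libraries and WL2 replicate 3 the highest for both the mesothelial sum and *Fmo2*. The 10 fibroblast and progenitor markers also had their lowest sums in Pre replicate 1 (1618 CPM) and WL1 replicate 2 (1635). Their highest sum was in WL2 replicate 3 (2592 CPM), but WL1 replicate 3 stood at 2347 CPM. The part of mesothelial cells, fibroblasts or progenitors in the *Fmo2* values was not tested. The FPKM ratio of *Fmo2* to *Fmo1* ranged from 0.783 to 1.66 over the libraries.

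*Cyp2e1* (ENSMUSG00000025479, chromosome 7, 140343652 to 140354900, + strand) was 10.4-fold lower after 1 week of SD and partly back after 2 weeks. It stood at 589, 478 and 600 CPM in Pre, at 63.5, 38.3 and 58.4 CPM in WL1, and at 227, 386 and 431 CPM in WL2. The phases did not overlap in any pair, with WL1 lowest, WL2 between and Pre highest. The log2 fold change in WL1 against Pre was -3.38 (SE 0.27) and was the 15th in size among called genes. The value in WL2 against WL1 was 2.71 (SE 0.26), 6.52-fold higher and the 24th in size. Both were called in every fit that left out 1 library, with ranges of -3.53 to -3.19 and 2.51 to 2.94. The remaining difference in WL2 against Pre, -0.68 (SE 0.24), was not called in the main fit, but was called lower by DESeq2 and with no filter. Without the 3 libraries rich in hepatocyte reads the values were -3.61 in WL1 against Pre, 2.85 in WL2 against WL1 and -0.76 in WL2 against Pre, with the same calls.

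*Car3* (ENSMUSG00000027559, chromosome 3, 14928572 to 14937583, + strand) took 0.513% to 1.46% of all counts of a library. It stood at 15581, 9103 and 11548 CPM in Pre, at 6852, 6948 and 5162 CPM in WL1, and at 10763, 13727 and 13548 CPM in WL2. WL1 lay below both other phases with no overlap, and WL2 lay within the wide range of Pre. The log2 fold change was called in WL1 against Pre at -0.93 (SE 0.20), 1.91-fold lower, and in WL2 against WL1 with an SE of 0.21, 2.01-fold higher. The first call was lost without Pre replicate 1 or WL1 replicate 1, 2 or 3 (values between -1.01 and -0.71 over these 4 fits). The second was lost without WL1 replicate 1 (1.07), 2 (1.08) or 3 (0.90) or WL2 replicate 2 (0.94) or 3 (0.95). Both calls were also lost with a replicate block and by limma on log2(FPKM + 1) or log2(FPKM + 0.1). In WL2 against Pre the log2 fold change was 0.07 (SE 0.20), not called, and -0.10 without Pre replicate 2. Without the 3 libraries rich in hepatocyte reads it was -1.37 in WL1 against Pre, 1.07 in WL2 against WL1 and -0.30 in WL2 against Pre, and the call in WL1 against Pre was lost.

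Muscle also expresses *Car3*. The 14 skeletal muscle markers, led by *Myl1*, *Acta1* and *Pvalb*, summed to 73.5 to 87.3 CPM in Pre. They summed to 35.4 to 44.7 CPM in WL1 and 39.5 to 60.7 CPM in WL2. Their sum was thus also lower in WL1 than in Pre, but the single markers differed in direction. Of 9 tested in WL1 against Pre, 6 had a log2 fold change above 0 and 3 below, with a median of 0.18. The 3 below 0 were the 3 named here. *Acta1* had means of 38.7, 7.29 and 14.0 CPM and fell in WL1 (-2.41, SE 0.45, edgeR adjusted p = 0.0131), *Myl1* had means of 27.8, 18.9 and 30.7 CPM and was not called, and *Pvalb* had means of 8.40, 8.24 and 1.18 CPM and was lower in WL2 than in WL1 (edgeR adjusted p = 0.00641). Of the 14, 9 were tested, and *Myh4*, *Myh7* and *Tnnc2* had 0 reads in all 9 libraries. The part of muscle in the *Car3* values was not tested. An antisense long noncoding gene, ENSMUSG00000120173, overlaps *Car3* and had at most 76 reads.

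**Figure D4:**
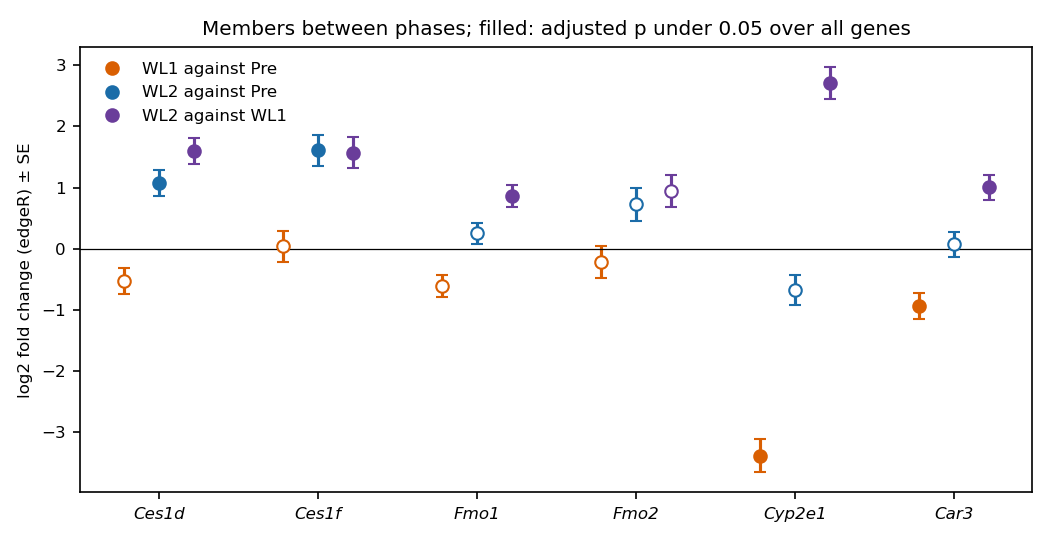
Log2 fold changes from edgeR (points, bars are SE) of the 6 genes in WL1 against Pre (orange), WL2 against Pre (blue) and WL2 against WL1 (purple); filled points passed the adjusted threshold over all genes. *Cyp2e1* reaches -3.38 and 2.71, and all 6 genes lie above 0 in WL2 against WL1.

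Libraries of the compared phases did not overlap for *Fmo1*, *Cyp2e1* and *Car3* in WL1 against Pre, all lower, where 13.9% of all genes were separated that way. In WL2 against Pre *Ces1d*, *Ces1f* and *Fmo2* lay wholly higher, where 15.1% of all genes did, and *Cyp2e1* wholly lower, where 15.8% did. In WL2 against WL1 all 6 lay wholly higher, where 13.9% did.

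Adipocyte markers summed to less in WL1 than in WL2, so each gene was also expressed per 100 reads of the adipocyte list. *Cyp2e1* then had means of 1.34 (SD 0.16, n = 3) in Pre, 0.171 (SD 0.05) in WL1 and 0.930 (SD 0.30) in WL2. *Car3* had 28.4 (SD 1.89), 19.8 (SD 1.51) and 33.8 (SD 4.99) reads on that scale. *Ces1d* had 1.78 (SD 0.43), 1.60 (SD 0.22) and 4.14 (SD 0.85), and *Ces1f* 0.0964 (SD 0.03), 0.130 (SD 0.03) and 0.328 (SD 0.06). The WL1 reduction of *Cyp2e1* and *Car3* was also present on this scale, at 0.128 and 0.697 of the Pre mean. *Fmo1* and *Fmo2* stood at 0.842 and 1.08 of Pre in WL1, so the sign of *Fmo2* turned. The adipocyte list itself moved, with 4 of its 12 markers called in each comparison, where 7.29%, 10% and 3.68% of all genes were called. All were lower in WL1 against Pre. In WL2 2 were higher and 2 lower against Pre, and 3 higher and 1 lower against WL1. *Lpl* ranged from 3370 to 13180 CPM within Pre. The ratios therefore mix changes of the list with those of the 6 genes, and they have no test.

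Across the 9 libraries, *Ces1d* and *Ces1f* were the most alike pair of the 6 genes (Pearson r = 0.943 of log2 CPM), followed by *Fmo1* with *Car3* (r = 0.878) and *Cyp2e1* with *Car3* (r = 0.866). *Ces1f* and *Cyp2e1* were the least alike (r = 0.274). Among 11073 other protein-coding genes, the closest to *Ces1d* were *Aldh6a1* (r = 0.985), an enzyme of valine breakdown, *Phyh* and *Dennd2d*. *Ces1f* was closest to *Cyp27a1* (r = 0.979), the sterol 27-hydroxylase, *Gsn* and *Tmem88b*. *Fmo1* was closest to *Glt8d2* (r = 0.991), *Acadsb* and *Gsta3*, and *Fmo2* to *Sult1e1* (r = 0.971), the estrogen sulfotransferase, *Cpne3* and *Sulf1*. *Cyp2e1* was closest to *Alad* (r = 0.972), an enzyme of haem synthesis, *Sccpdh* and *Hspb8*. *Car3* was closest to *Pygl* (r = 0.979), a glycogen phosphorylase, *Pex3* and *Arl4a*. The points are libraries of 3 phases that share depth and tissue make-up, so these values describe the pattern only.

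The relatives of these genes, listed by family and role, were called in both directions. Of 121 listed enzymes 104 were tested. In WL1 against Pre 7 were called higher and 15 lower, in WL2 against Pre 8 and 10, and in WL2 against WL1 11 and 4. Over all genes the shares called higher and lower were 2.6% and 4.69%, 3.35% and 6.66%, and 1.31% and 2.37%. The related enzymes had median log2 fold changes of -0.09, 0.03 and 0.21. The count in WL1 against Pre went from 22 to 13, 12 and 13 without Pre replicate 1, WL1 replicate 1 and WL1 replicate 3. All-gene calls went from 1350 to 562, 600 and 512 in these fits. The count in WL2 against WL1 went from 15 to 5, 7, 3, 2 and 3 without WL1 replicates 1, 2 and 3 and WL2 replicates 2 and 3. All-gene calls there went from 681 to 262, 176, 130, 37 and 101. Without the 3 libraries rich in hepatocyte reads the counts were 5, 11 and 12.

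**Figure D5:**
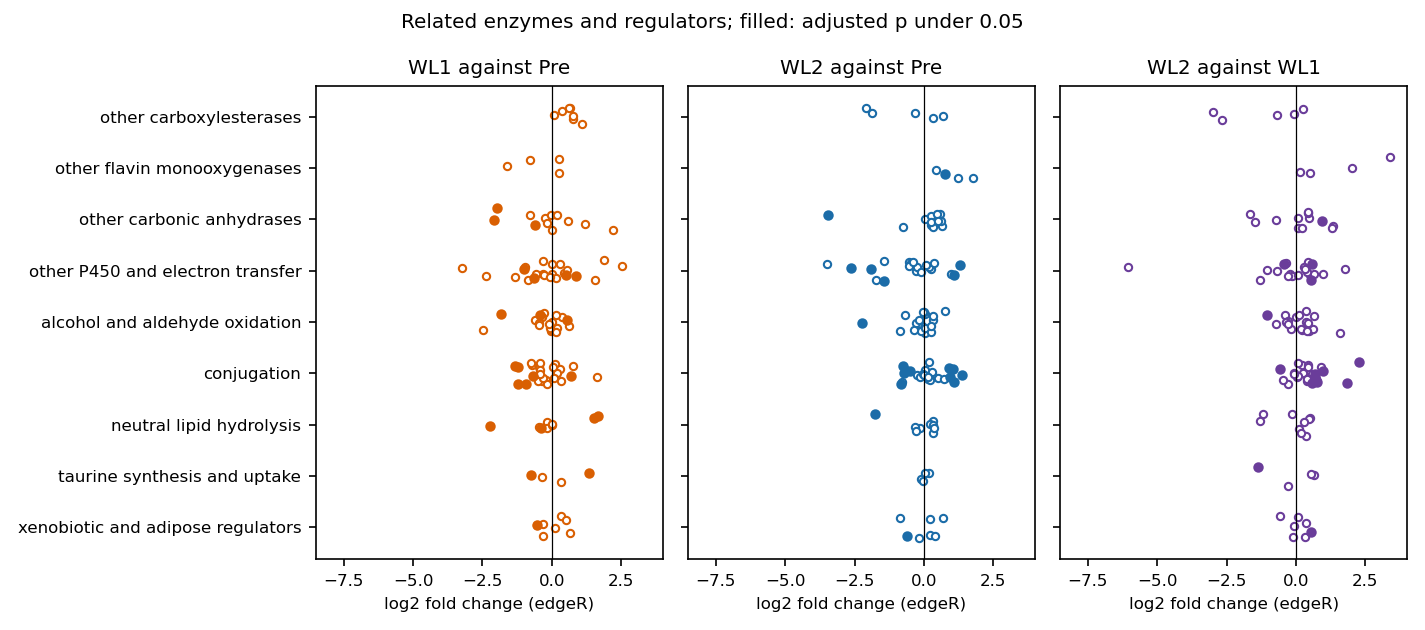
Log2 fold changes from edgeR (x axis) of tested related enzymes and regulators by list (rows; each point a gene, jittered vertically; no error drawn) in the 3 comparisons; filled points passed the adjusted threshold, and genes with 0 reads in a compared phase are left out. Filled points lie on both sides of 0, and conjugation, the list with the most genes tested, has the most of them in each comparison.

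None of 7 tested carboxylesterases outside the 6 genes was called in any comparison by edgeR, DESeq2 or limma, and 0, 1 and 3 had an unadjusted p under 0.05. *Ces2g* was the most abundant, with a mean of 2.83 FPKM and 9.83, 10.4 and 12.3 CPM in Pre, WL1 and WL2. *Ces1c*, the secreted plasma carboxylesterase made by liver, had 0 reads in all 3 WL2 libraries, which allows up to 0.164 to 0.174 CPM by counting error. It ranged from 0 to 1.615 CPM in Pre and from 0.0918 to 4.89 CPM in WL1. The highest value was that of WL1 replicate 1, 1 of the 3 libraries rich in hepatocyte reads. The part of liver reads in these values was not tested.

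*Fmo5* was the only other flavin monooxygenase called. It rose from 38.1 CPM (SD 5.17, n = 3) in Pre to 64.1 (SD 4.65) in WL2, a log2 fold change of 0.75 (SE 0.15, edgeR adjusted p = 0.011), and its call was lost without WL2 replicate 2. It stood at 45.5 CPM in WL1. In WL1 against Pre and WL2 against WL1 edgeR called 0 of the 4 tested relatives, 0 and 2 had an unadjusted p under 0.05, and DESeq2 called 0 and 2.

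Among 12 tested carbonic anhydrases, *Car5b*, a mitochondrial form, moved as *Car3* did in WL1 against Pre and in WL2 against WL1. In WL2 against Pre it was 0.33 (SE 0.12) and not called. Its WL2 libraries, at 326 to 347 CPM, lay above Pre, at 250 to 286 CPM, where those of *Car3* lay within the Pre range. *Car5b* was called in the other comparisons. It fell from 270 CPM (SD 18.2, n = 3) in Pre to 176 (SD 26.5) in WL1, a log2 fold change of -0.62 (SE 0.13, edgeR adjusted p = 0.0177), and rose to 339 (SD 11.9) in WL2, 0.95 above WL1 (SE 0.13, edgeR adjusted p = 0.00671). The first call was lost without Pre replicate 1 (-0.51) and the second without WL2 replicate 2. *Car12*, a membrane form, fell from 3.55 CPM in Pre to 0.321 CPM in WL2 (log2 fold change -3.44, SE 0.50, edgeR adjusted p = 0.00205), a call kept in every fit that left out 1 library. *Car1* was lower in WL1 than in Pre by edgeR (-2.08, SE 0.43, adjusted p = 0.0184) at 0.504 against 2.18 CPM, and the call was lost without Pre replicate 1, WL1 replicate 1 or WL1 replicate 3 (range -2.38 to -1.76). *Car4*, the most abundant of the list, had means of 34.0, 49.8 and 53.3 FPKM and was not called.

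Of 23 tested P450 and electron transfer genes, 4, 5 and 3 were called in the 3 comparisons, of which 2, 2 and 2 were higher. *Cyp4b1* had means of 123, 226.5 and 301.5 CPM in Pre, WL1 and WL2, and *Cyp2d22* had 46.7, 66.4 and 98.0 CPM. In WL2 against Pre they were called higher by 1.29 (SE 0.18, edgeR adjusted p = 0.00164) and 1.07 (SE 0.13, edgeR adjusted p = 0.000793). Both of these calls were kept in every fit that left out 1 library, and their other calls were each lost in some. *Cyb5b*, the outer mitochondrial membrane cytochrome b5, fell from 682 CPM (SD 44.0, n = 3) in Pre to 345 (SD 20.6) in WL1 and 253 (SD 12.6) in WL2, with log2 fold changes of -0.98 (SE 0.10, edgeR adjusted p = 0.000753) and -1.43 (SE 0.10, edgeR adjusted p = 3.3e-05). *Cyb5a*, the form of the endoplasmic reticulum that can pass electrons to P450s, fell from 418 to 267 CPM in WL1 (-0.65, SE 0.11, edgeR adjusted p = 0.00922) and stood at 384 CPM in WL2. These 3 calls were kept in every fit that left out 1 library. *Cyp2b10* (1.31, 0.519 and 0.206 CPM) and *Cyp2r1* (3.93, 2.17 and 1.05 CPM) were called lower in WL2 than in Pre at low levels, by -2.64 and -1.90. The *Cyp2b10* call was lost without Pre replicate 3 or WL2 replicate 3, and that of *Cyp2r1* without any 1 library other than WL2 replicate 2 (range -2.24 to -1.42).

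The conjugation list held 6 of 22, 9 of 18 and 9 of 15 calls of related enzymes in the 3 comparisons. It was also the largest list, with 26 of the 104 related enzymes tested. Most of its enzymes attach groups such as glutathione, sulfate or glucuronate, but *Ephx1*, *Ephx2*, *Nqo1* and *Ugdh* do not. *Ephx1* and *Ephx2* were called in WL2 against Pre (-0.52 and 0.91), and *Ephx2* also in WL2 against WL1 (0.56). These were kept in 4, 9 and 3 of 9 fits that left out 1 library. Over all genes 7.29%, 10% and 3.68% were called. Of 26 tested, 1 rose and 5 fell in WL1 against Pre, 5 rose and 4 fell in WL2 against Pre, and 8 rose and 1 fell in WL2 against WL1. *Gsta3* and *Gsta4*, alpha-class glutathione transferases, were lower in WL1 and higher in WL2. *Gsta4* had means of 8.01 CPM (SD 1.20, n = 3) in Pre, 3.42 (SD 0.85) in WL1 and 16.6 (SD 2.76) in WL2, and differed by 2.28 (SE 0.22, edgeR adjusted p = 0.00214) between the last. *Gsta3* had means of 57.8, 23.4 and 82.9 CPM and differed by -1.31 (SE 0.21, edgeR adjusted p = 0.00693) and 1.83 (SE 0.22, edgeR adjusted p = 0.00433) in WL1 against Pre and WL2 against WL1. *Gstt2* rose from 28.1 to 72.6 CPM between Pre and WL2 (1.37, SE 0.25, edgeR adjusted p = 0.00746). These calls were kept in every fit that left out 1 library. *Gstm1*, the most abundant of the list at a mean of 666 FPKM, went the other way, from 848 CPM in Pre to 1378 in WL1 (0.70, SE 0.11, edgeR adjusted p = 0.00585), also in every such fit. *Mgst1*, at a mean of 301 FPKM, was not called.

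Of 19 tested alcohol and aldehyde oxidising genes, 3, 1 and 1 were called. *Aldh1a7* fell from 168 CPM (SD 27.2, n = 3) in Pre to 46.8 (SD 11.2) in WL1 and 35.6 (SD 5.27) in WL2, log2 fold changes of -1.84 (SE 0.19, edgeR adjusted p = 0.000726) and -2.24 (SE 0.19, edgeR adjusted p = 9.3e-05), in every fit that left out 1 library. *Cat*, catalase, was the most abundant, at 280, 206 and 274 FPKM, and its call of -0.42 in WL1 against Pre was lost without any 1 library other than WL2 replicate 1 (range -0.50 to -0.37). *Aldh9a1* (0.54 in WL1 against Pre) lost its call without Pre replicate 1, Pre replicate 3 or any single WL1 library (range 0.47 to 0.58). *Aldh3b1* (-1.05 in WL2 against WL1) lost it without WL1 replicates 2 or 3 or WL2 replicates 2 or 3 (range -1.24 to -0.83). *Akr1a1*, at a mean of 210 FPKM, was not called.

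Of 9 tested genes of neutral lipid hydrolysis, the reaction of CES1D on triglyceride, 2 rose and 2 fell in WL1 against Pre. *Pnpla3* fell from 308 CPM (SD 71.2, n = 3) in Pre to 66.0 (SD 6.43) in WL1 and 91.6 (SD 16.3) in WL2, by -2.22 (SE 0.20, edgeR adjusted p = 0.000347) and -1.75 (SE 0.19, edgeR adjusted p = 0.000417), in every fit that left out 1 library. *Nceh1* and *Lipa*, a cholesterol ester hydrolase and the lysosomal acid lipase, were called higher in WL1 than in Pre, by 1.68 and 1.53, and lost the call without any 1 of the Pre or WL1 libraries (ranges 1.37 to 1.89 and 1.24 to 1.67). Both are also macrophage genes, and the 10 macrophage markers, led by *Lyz2*, summed to 1728 to 3296 CPM in Pre, 3122 to 5864 CPM in WL1 and 1918 to 3408 CPM in WL2 with none at 0; their part was not tested. *Pnpla2*, the main triglyceride lipase of adipocytes, and *Mgll* had means of 634 and 302 FPKM and were not called. EdgeR called 0 of these 9 genes in WL2 against WL1, 6 had an unadjusted p under 0.05, and DESeq2 called 2 and limma 0.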

How the data were processed

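RNA was purified from epididymal adipose tissue of 3 phases with 3 libraries each, and libraries were made and sequenced by a service provider. The authors deposited a table of raw read counts per gene and a table of FPKM per gene, both with gene coordinates. The submitters' processing notes name HISAT2, HISAT, TopHat2, CASAVA, GRCm38 and mm10 without roles; the sources used here name neither the counting program nor its use of strand. The table and GENCODE M21 (GRCm38) share 52073 genes, of which 1472 have equal start and end, 0 of them among the 6, so table coordinates carry no build here. All columns of sample values matched a sample.

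Deposited counts were fitted with edgeR 4.0.16 (TMM factors, quasi-likelihood test, R 4.3.3, 1 model over 9 libraries) for genes reaching 0.5 CPM, the study's threshold, in 1 or more libraries. Adjusted p-values are Benjamini-Hochberg over 18510 genes, threshold 0.05. Alternatives used DESeq2 1.42.0, limma 3.58.1 on log2(FPKM + 1) and log2(FPKM + 0.1), other scalings and filters, a replicate block, the compared groups alone and leaving out each library. The fit was tested on simulated data. Depth limits precision for genes of few reads, and intervals of counts of 0 (3 counts per library) cover counting error only. No 2 libraries held identical values.

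The 6 genes and the gene lists were chosen with earlier results of these data known. Of each list of relatives, the up to 3 called genes with the largest change and the 2 with the highest mean FPKM are named; 1 gene that this rule names is not reported here. Of marker lists the 3 highest by CPM were to be named. For likeness the 3 protein-coding genes of highest Pearson r, among those averaging 5 CPM or more, were taken. *Gm45909*, ENSMUSG00000120173, *Ces1e*, *Myh4*, *Myh7* and *Tnnc2* were named after their values were seen. So were *Cyp4b1*, *Cyp2d22*, *Ephx1*, *Ephx2*, *Nqo1* and *Ugdh*.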

Additional observations from a re-analysis of the deposited data

How the results depend on the processing

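Of the differences of the 6 genes under alternatives other than those added later, 301 kept direction and side of the threshold, 26 lost and 12 gained a call, and 3 turned sign: *Ces1f* in WL1 against Pre (-0.17 to 0.32 over omissions), -0.17 without Pre replicate 3 and -0.15 without WL1 replicate 1, and *Car3* in WL2 against Pre (-0.10 to 0.30), -0.10 without Pre replicate 2. The cause of the changes below was not tested. Single-library omissions gave 512 to 1500 called genes in WL1 against Pre (main 1350), 743 to 1688 in WL2 against Pre (main 1853) and 37 to 1351 in WL2 against WL1 (main 681); of the 6 genes 1 to 3, 1 to 2 and 1 to 6; and of related enzymes 12 to 25, 13 to 18 and 2 to 20. The fewest genes in each comparison were called without WL1 replicate 3 (512), WL2 replicate 2 (743) and WL2 replicate 2 (37). DESeq2 called 2344 genes in WL1 against Pre and 1935 in WL2 against WL1, with 28 related enzymes in the latter and 4 of the 6 genes in WL2 against Pre (*Fmo2* and *Cyp2e1* added). With no filter, 1668 genes and 28 related enzymes were called in WL2 against WL1, and 4 of the 6 genes in WL2 against Pre. The compared groups alone gave 1053 genes in WL2 against WL1. Limma on either FPKM scale called 1 of the 6 genes in WL1 against Pre. Same-numbered libraries had correlations of deviations of -0.277 to 0.107. Libraries of different number were not compared, so these values cannot show whether the numbers pair libraries. The replicate block called 844 and 330 genes in WL1 against Pre and WL2 against WL1, with 1 and 3 of the 6 genes. In WL2 against WL1 it called 8 related enzymes. Excluding the 3 libraries rich in hepatocyte reads, an alternative chosen after seeing the data, left 166 genes, 1 of the 6 and 5 related enzymes in WL1 against Pre, and 706, 1 and 11 in WL2 against Pre, with *Ces1f* at -0.60 in WL1 against Pre and *Car3* at -0.30 in WL2 against Pre. The ratio to adipocyte markers, also added, put *Fmo2* in WL1 against Pre at 0.11. Scaling by library totals alone moved the median of all genes to 0.12 and 0.16 in WL1 and WL2 against Pre and the share of higher calls from 35.7% to 61% and from 33.5% to 64.2%; upper quartile scaling gave 48.3% in WL2 against WL1, where the main fit had 35.5%. None of the 6 genes changed sign under these scalings.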

Other observations

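Taurine genes, listed because FMO1 forms taurine from hypotaurine, differed in direction after 1 week. *Slc6a6*, the taurine transporter, rose from 130 CPM (SD 10.7, n = 3) in Pre to 326 (SD 66.0) in WL1, a log2 fold change of 1.33 (SE 0.23, edgeR adjusted p = 0.00927) that was kept in every fit leaving out 1 library, and fell to 127 (SD 44.5) in WL2 (-1.36, SE 0.23, edgeR adjusted p = 0.0166), a call lost without WL1 replicate 3, WL2 replicate 2 or WL2 replicate 3. *Cdo1*, cysteine dioxygenase, had means of 1213, 730 and 1134 CPM and fell in WL1 (-0.73, SE 0.17, edgeR adjusted p = 0.0268), a call lost without Pre replicates 1 or 2 or WL1 replicates 1 or 3 (range -0.93 to -0.60). *Csad*, the next enzyme, had means of 143, 112 and 160 CPM and was not called. In WL2 against Pre 0 of the 4 tested genes were called by edgeR, DESeq2 or limma, and 0 had an unadjusted p under 0.05.

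Of 8 tested regulators of xenobiotic and adipose genes, 1 was called in each comparison. *Rxra*, the shared partner of many nuclear receptors, fell from 290 CPM (SD 27.3, n = 3) in Pre to 203 (SD 20.9) in WL1 and 191 (SD 6.51) in WL2, by -0.52 and -0.61 (SE 0.12 each, edgeR adjusted p = 0.0257 and 0.00905). The second call was kept in every fit leaving out 1 library, and the first was lost when Pre replicate 1, Pre replicate 2 or a WL1 library was left out (range -0.59 to -0.44). *Pparg*, the main adipocyte nuclear receptor, stood at 196, 156 and 227 CPM and was called in WL2 against WL1 (0.54, SE 0.13, edgeR adjusted p = 0.0456), a call lost when Pre replicate 3, a WL1 library, WL2 replicate 2 or WL2 replicate 3 was left out (range 0.45 to 0.60). *Cebpa* had means of 332, 226 and 297 FPKM and was not called.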
